A study of Mus musculus with 74 samples.

Results

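The sarcomere and muscle assembly genes were followed through 74 single cells sorted from the mouse pro-epicardial organ. The set holds 42 genes that were listed by name, 13 of the thin filament, 9 of the thick filament, 3 of the M-band and titin, 13 of the Z-disc and its linkers and 4 assembly factors. All 42 were matched among the 30323 gene rows of the deposited table. They were chosen with earlier results of these data known, so their shares beside all genes describe the set and are not independent support. The cells came from C57BL/6 embryos at embryonic day 9.5 that carried Tbx18Cre;mTmG, a Cre recombinase driven from Tbx18 and a membrane reporter that changes colour after recombination. The sort thus takes cells with a history of Tbx18 activity. All cells form a single group, with no treatment, second genotype or control. No label ties a cell to an embryo or litter, so the cells stand for 1 sample, cells were not tested against each other and p-values are left out.

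Sarcomeres are the contractile units of striated muscle, in which myosin thick filaments pull on actin thin filaments. Troponin and tropomyosin make that pull depend on calcium, the Z-disc anchors the thin filaments, the M-band holds the thick filaments in register, and titin spans between both. In the embryo the heart beats before all adult isoforms are in use, and several subunits are known to be made first in an atrial, slow skeletal or smooth muscle form. The pro-epicardial organ lies beside the venous inflow of the heart, where new myocardium is still being added.

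Levels are given as CPM, a gene's share of the counts of its cell on a scale where 10000 CPM is 1% of the counts. A gene was called found in a cell at 5 or more counts. Cell totals ran from 216177 to 2618538 estimated counts, with a median of 849718. Cardiac actin, Actc1 (ENSMUSG00000068614, chromosome 2, 114047282 to 114053548, minus strand, GRCm38), served as the axis. Its level was 0 in the lowest cell, 37.9 CPM in the median cell and 29645 CPM in the highest, and 47 cells had it. The 26 cells without a single Actc1 count had a detection limit, set at 3 counts, of 1.15 to 12.8 CPM. The cells were put in 5 Actc1 ranges, with 29 cells under 10 CPM, 16 from 10 to 100, 11 from 100 to 1000, 12 from 1000 to 10000 and 6 at 10000 or more, and the median Actc1 level of these ranges was 0, 37.9, 420.02, 3298 and 18358 CPM. Where high and low cells are set side by side, the 18 cells at 1000 CPM or more stand against the 45 under 100 CPM, and their median totals were 817114 and 827290 counts. Intervals are exact (Clopper-Pearson) at 95% and cover the counting of cells only.

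More members of the sarcomere set were present in the cells with more Actc1. The 42 genes, with Actc1 itself among them, took a median of 0.278%, 0.378%, 0.646%, 1.30% and 5.39% of a cell's counts in the 5 Actc1 ranges from low to high. Between single cells this share ran from 0.0943% to 9.52%. Actc1 alone had a median of 18358 CPM in the top range, so part of the rise in the share is set by the ordering. The share without Actc1 was not computed. After every cell was thinned to the lowest total, the number of other members present, of 41 without Actc1, had medians of 9, 11.5, 12, 17 and 28.5 in the same order. No cell had all 41, and the fullest had 32.

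**Figure D1:**
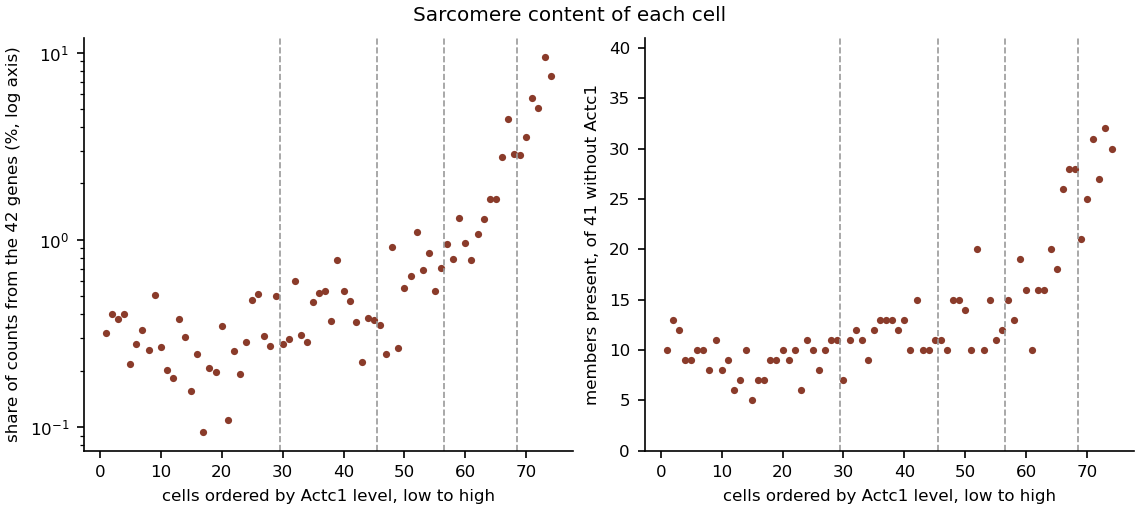
Each point is 1 of 74 cells in order of Actc1 level, with dashed lines between the 5 Actc1 ranges. The left panel gives the percent of the cell's counts that came from the 42 genes, Actc1 included (log axis), from 0.0943% to 9.52%. The right panel gives how many of 41 members other than Actc1 were present after thinning, from 5 to 32.

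Most members with a place in the order of appearance came in where Actc1 was at 1000 CPM or more. A member was assigned to the lowest Actc1 range from which on at least 50% of the thinned cells, in that range and each higher one, had it. Under this rule 8 members were present from the lowest range on, namely Tnni1, Tnnt2, Tpm1, Tpm2, Myl4, Myl7, Des and Unc45b, where 23.5% of all 19756 genes with a count were, so this share was near that of other genes. From 10 to 100 CPM came Mybpc3 alone, beside 0.461% of all genes. In the range from 100 to 1000 CPM no member came in, beside 0.977%, and such low counts are near those shares too. The range from 1000 to 10000 CPM brought 13 members, against 2.39% of all genes, and the top range brought 9, against 4.23%. The remaining 10 had no such range, against 68.4% of all genes. Together 22 of 41 members came in at 1000 CPM or more, beside 6.62% of all genes. On counts as deposited, without thinning, Ttn came in from 100 to 1000 CPM, and Nebl and Ankrd1 from 10 to 100 CPM. Pdlim5 then came in from the lowest range, Smyd1 from 1000 to 10000 CPM and Mylk3 in the top range. With 1 count as the mark of presence, Tnnc1, Ttn and Csrp3 came in from 100 to 1000 CPM, and Nebl and Ankrd1 from 10 to 100 CPM. Pdlim5 and Smyd1 then moved as on deposited counts, and Mylk3 and Myom2 came in at the top range. With 10 counts, Myl2, Myl3, Tcap, Myo18b and Coro6 lost their range, and Myom1, Actn2 and Nexn moved to the top one. With cells ordered by the other members instead of Actc1, Nebl and Ttn came in at the third range and Nexn at the top one. The Actc1 range of a cell was set from the same libraries, so the order is one of co-occurrence and not of time.

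**Figure D2:**
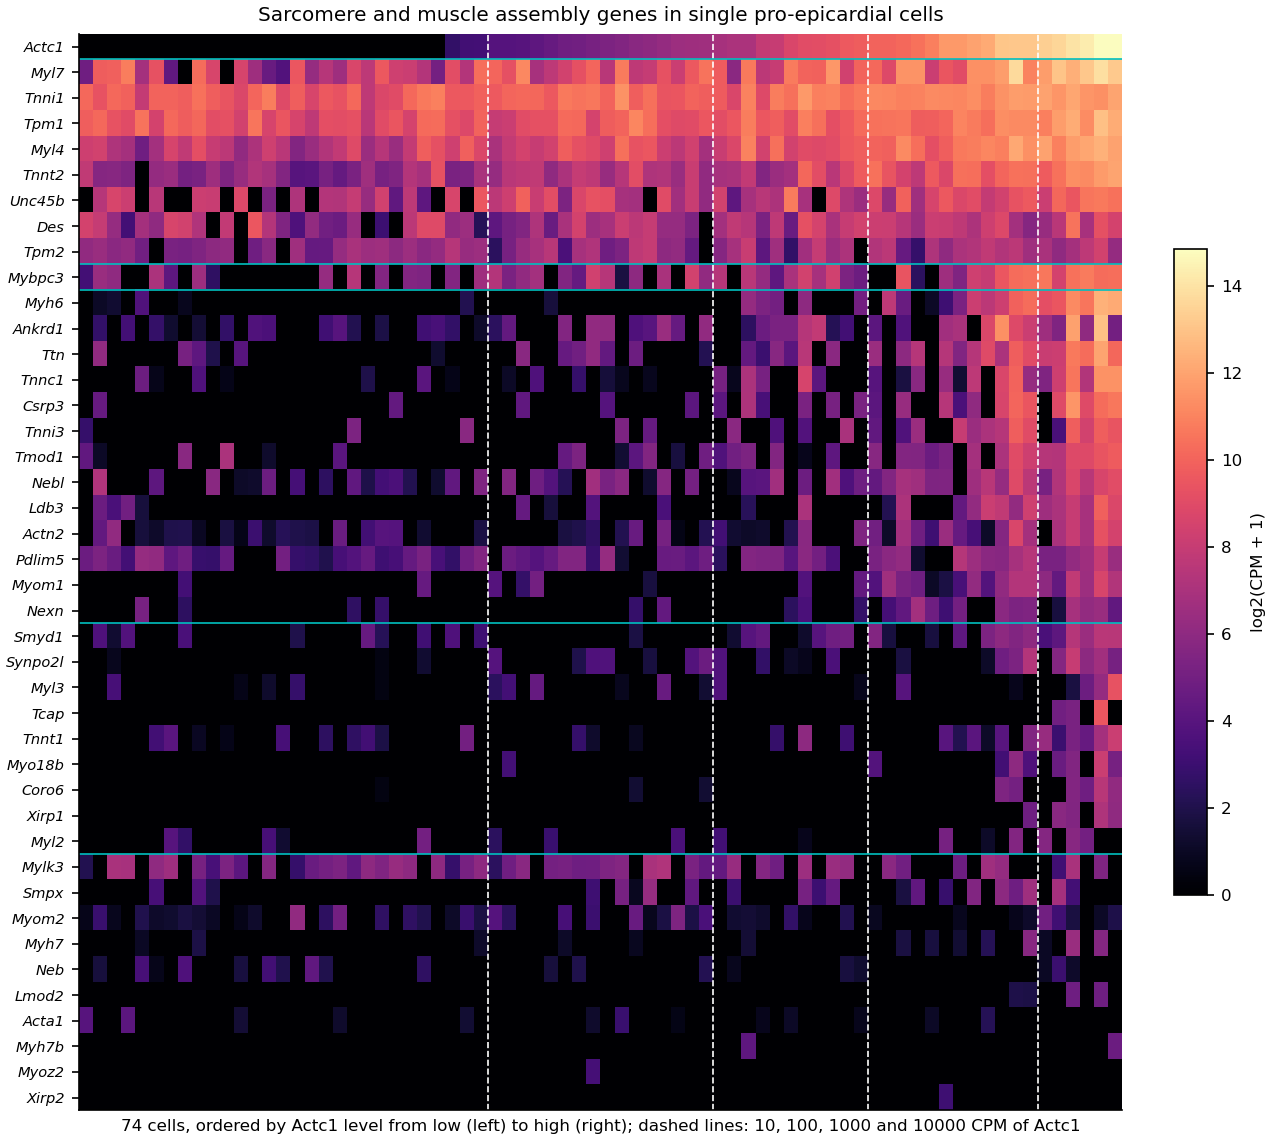
Rows are the 42 genes, columns the 74 cells in order of Actc1 level, and colour gives log2(CPM + 1). Dashed lines mark 10, 100, 1000 and 10000 CPM of Actc1, and the horizontal lines part Actc1, the 8 members present from the lowest range, Mybpc3, the 13 from 1000 CPM, the 9 from 10000 CPM and the 10 without a range.

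Compared as means with 1 CPM added, 34 of 41 members were at least 2-fold higher in cells with high Actc1 than in cells with low Actc1, where 5.9% of all genes were. None was 2-fold lower, where 7.61% of all genes were. The median ratio was 11.5 over the 41 members and 0.959 over all genes. Lmod2, Myh7b, Tcap, Xirp1 and Xirp2 had no count in any low cell, and with these 5 at their bound against 3 counts over that group the median was 12.3. Of the other 36 members, 30 passed the 2-fold mark. Members found in at least 10% of cells, 31 without Actc1, had a median Spearman rank correlation with Actc1 of 0.54 over the 74 cells, and 18 of the 31 were at 0.5 or more, as were 0.982% of 11511 such genes. The median over all others was -0.05. These points share their libraries and the scaling to the cell total. Some of the 31 passed the 10% filter mainly through high cells, as Myh6 was found in 15 high and 1 low cells and Myo18b in 8 and 1. For such members the filter itself favours a positive correlation, and the genes compared passed the same filter. Over members in at least 50% of cells the median correlation was 0.58.

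Single cells weighed on several of these ratios. Cell 41 (28567 CPM of Actc1) held the highest value of 18 members, and cells 65 and 74 held that of 7 each. Without its own highest cell a member's ratio moved by more than 1.5 times for 9 genes. Tcap had a ratio of 4.94 without that cell and 46.2 with it, Myl3 of 2.93 and 16.0, Ankrd1 of 38.7 and 70.8, and Myo18b of 10.8 and 23.7. Coro6 had 12.8 without it and 21.6 with it, Xirp1 12.5 and 19.7, Tnnt1 7.00 and 11.5, Myh7 6.65 and 10.4, and Myh7b 1.00 and 2.42. Desmin lost the 2-fold mark, at 1.66 instead of 2.15, and 32 of 41 members kept it.

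The promoters of the set were read for motifs of muscle regulators. RefSeq windows on GRCm38.p6, from 250 bases before to 50 bases after a start site, were matched for 36 members in 49 windows, and both strands were searched. The CArG box, the site of serum response factor, was in 7 of the 36 genes (Acta1, Actc1, Ldb3, Myl3, Myl7, Myom1 and Nebl), and 1.81% of all 27025 genes with a window held it. The MEF2 site, read as its strict palindrome, was in 5 (Mybpc3, Myoz2, Synpo2l, Ttn and Xirp2), against 0.636% of all genes. The other letters searched were TATAAA (7 members, 15.7% of all genes), CATTCC of the TEAD factors (14 members, 16.6%), AGATAA of the GATA factors (9 members, 12.7%) and CANNTG, the E-box (31 members, 75.0%). Overlap between motifs was allowed, and median GC was 55.0% in member windows and 52.7% in all. These 5 windows are shown because they hold one of these motifs and their genes were found in very different numbers of cells. Actc1, in 47 cells, and Acta1, in 2, are the actin pair with the same box, Myl7 was in 72 cells, and Mybpc3 and Ttn, in 50 and 32 cells, hold the MEF2 letters. Capitals mark the CArG box in the first 3 sequences and the MEF2 site in the last 2, read 5′ to 3′ on the strand of the gene, which is minus for all but Mybpc3.
The windows are chr2:114052826-114053125 for Actc1, chr8:123894726-123895025 for Acta1, chr11:5898733-5899032 for Myl7, chr2:91117894-91118193 for Mybpc3 and chr2:76982498-76982797 for Ttn.
Actc1: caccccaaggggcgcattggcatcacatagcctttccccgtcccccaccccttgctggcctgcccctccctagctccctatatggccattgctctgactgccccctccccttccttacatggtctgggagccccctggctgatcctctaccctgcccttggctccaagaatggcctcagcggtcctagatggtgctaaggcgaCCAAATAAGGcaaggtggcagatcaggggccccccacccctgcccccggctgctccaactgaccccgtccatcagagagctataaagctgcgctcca
Acta1: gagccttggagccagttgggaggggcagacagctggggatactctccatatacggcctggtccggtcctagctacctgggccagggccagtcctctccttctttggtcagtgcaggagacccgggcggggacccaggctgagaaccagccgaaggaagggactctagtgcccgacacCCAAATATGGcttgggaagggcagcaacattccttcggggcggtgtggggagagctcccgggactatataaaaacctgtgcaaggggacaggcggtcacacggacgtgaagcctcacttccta
Myl7: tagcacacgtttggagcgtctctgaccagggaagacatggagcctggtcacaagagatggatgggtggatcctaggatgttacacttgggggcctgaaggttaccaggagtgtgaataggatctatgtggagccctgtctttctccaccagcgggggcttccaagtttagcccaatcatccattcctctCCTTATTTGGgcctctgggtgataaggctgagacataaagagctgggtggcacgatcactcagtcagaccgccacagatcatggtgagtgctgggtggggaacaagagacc
Mybpc3: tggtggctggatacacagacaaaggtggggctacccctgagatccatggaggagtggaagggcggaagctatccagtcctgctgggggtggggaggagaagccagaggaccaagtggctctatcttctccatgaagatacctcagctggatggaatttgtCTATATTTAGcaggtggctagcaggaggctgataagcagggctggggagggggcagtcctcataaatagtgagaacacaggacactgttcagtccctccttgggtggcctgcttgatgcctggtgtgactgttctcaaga
Ttn: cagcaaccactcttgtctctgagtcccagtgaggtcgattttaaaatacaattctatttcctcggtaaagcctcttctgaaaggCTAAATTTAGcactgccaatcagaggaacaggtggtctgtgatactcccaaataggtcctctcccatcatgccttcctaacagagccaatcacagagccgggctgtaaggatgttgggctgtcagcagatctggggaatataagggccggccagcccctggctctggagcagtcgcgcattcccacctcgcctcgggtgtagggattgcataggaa
The CArG box began 47 bases before the start site in Actc1, 73 in Acta1 and 61 in Myl7, and the MEF2 letters began 90 bases before it in Mybpc3 and 166 in Ttn. In Actc1 TATAAA began 33 bases after the RefSeq start site, whereas in Acta1 it began 7 bases before it. A match is a run of letters and was not tested as a bound site.

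Thin filament genes included the most widely found members. Tnni1 (ENSMUSG00000026418, chromosome 1, 135779434 to 135810989), the slow skeletal troponin I that the embryonic heart uses, was found in 74 of 74 cells (interval 95.1% to 100%), and its mean level was 1540.05 ± 988 CPM (SD over cells). Its medians in the 5 Actc1 ranges from low to high were 903, 1036, 1690, 2298 and 3541 CPM, and the lowest cell of all had 212 CPM. Every high cell, at 1815 to 4460 CPM, lay above the median of the low cells, at 987 CPM, but the 2 groups overlapped, since low cells reached 2841 CPM. Tpm1 (ENSMUSG00000032366, chromosome 9, 67022590 to 67049406), a tropomyosin of striated and smooth muscle, was also found in 74 cells, at 189.5 CPM in the lowest, 878 in the median and 7763 in the highest. Counts were per gene, so which Tpm1 transcript a cell made cannot be read from them. The range medians of Tpm1 were 611, 614, 811, 1507 and 4299 CPM. It averaged 2537 ± 1787 CPM in high cells and 756 ± 421 CPM in low cells (SD over 18 and 45 cells), a ratio of 3.35. Tnnt2 (ENSMUSG00000026414, chromosome 1, 135836354 to 135852260), cardiac troponin T, was found in 73 cells, and its range medians of 47.4, 164, 192, 941 and 2499 CPM were spread more widely than those of Tnni1. Of the members found in at least 10% of cells it had the highest rank correlation with Actc1, at 0.80. Tpm2, a second tropomyosin, was found in 67 cells and had a flatter course, with range medians of 61.9, 66.6, 100.5, 149 and 119 CPM and a ratio of 1.91.

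The calcium-binding subunit was found in far fewer cells than Tnnt2 and Tnni1. Tnnc1, troponin C of heart and slow muscle, was found in 22 cells, 13 of the 18 high cells and 4 of the 45 low ones. It had 0, 79.8 and 2868 CPM in the lowest, median and highest high cell, and 0, 0 and 26.2 CPM in the low cells. The means were 533 ± 929 CPM in high cells and 1.82 ± 5.10 CPM in low cells, a ratio of 189. Tnni3, the cardiac troponin I of the adult heart, was found in 14 high and 5 low cells, at means of 283 ± 350.4 and 3.65 ± 12.0 CPM. Its range medians were 0 CPM up to 1000 CPM of Actc1, then 86.4 and 525 CPM. Tnnt1, slow skeletal troponin T, was found in 18 cells, with range medians of 0 CPM up to 1000 CPM of Actc1, then 0.605 and 58.7 CPM.

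Among the thin filament length and cap genes, Tmod1, which caps the slow-growing end of actin, was found in 15 high and 9 low cells at 228 ± 263 and 8.57 ± 23.1 CPM. Tmod1 shares 32.6% of its exon bases with Tstd2 on the opposite strand, which was found in 65 cells, and strand use in counting is not stated, so their reads cannot be told apart there. Nebl, encoding nebulette of the cardiac Z-disc edge, was found in 17 high and 17 low cells, but at 178 ± 174 and 16.7 ± 30.0 CPM. Its range medians were 1.39, 8.44, 15.0, 86.8 and 299 CPM. Which Nebl transcript a cell made cannot be read from counts per gene. Neb, the giant nebulin of skeletal muscle, was found in 5 cells and nowhere above 18.8 CPM, with a median of 0 CPM in each range but the top one, at 0.521 CPM. Lmod2, which lengthens cardiac thin filaments, was found in 2 cells, both in the top range, and skeletal actin Acta1 in 2 cells, both under 100 CPM of Actc1, at no more than 17.1 CPM and with a median of 0 CPM in every range.

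Among thick filament genes the light chains Myl4 and Myl7 were found in nearly all cells, and the other light chains and the heavy chains in 21 or fewer. Myl4 (ENSMUSG00000061086, chromosome 11, 104550663 to 104595753), the embryonic and atrial essential light chain, was found in 74 cells with range medians of 218, 340, 512, 1736 and 4012 CPM. It averaged 2532 ± 1469 CPM in high cells and 347 ± 283 CPM in low cells, a ratio of 7.27. Myl7 (ENSMUSG00000020469, chromosome 11, 5896637 to 5898782), the atrial regulatory light chain, was found in 72 cells (97.3%, interval 90.6% to 99.7%), with range medians of 203, 619, 974, 2368 and 8783 CPM. It varied more within a range than Myl4 did, and in the lowest range alone it ran from 0 to 1804 CPM. Members in at least 95% of cells were these light chains with Tnni1, Tpm1 and Tnnt2, 5 of 42, a mark that 14.3% of all genes passed.

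Myh6 (ENSMUSG00000040752, chromosome 14, 54941921 to 54966927), the alpha myosin heavy chain of atrial and adult mouse heart, was found in 21 cells, 15 high ones and 1 low one. Its medians were 301 CPM in high cells and 0 CPM in low cells, the highest cell of each had 5553 and 12.6 CPM, and in the top range no cell was under 578 CPM. Its range medians were 0 CPM up to 1000 CPM of Actc1, then 118 and 1964 CPM. The means of 1050.3 ± 1639.9 and 0.480 ± 1.96 CPM gave a ratio of 710 with 1 CPM added, a scale on which genes without a count in low cells are held down. Myh6 and Myh7, the beta heavy chain, share 32.3% of the 31-base words of the Myh6 transcript, so that their split is uncertain. Myh7 was found in 3 cells, all of which had Myh6, and Myh7b, a slow-tonic heavy chain, in 2. The median of both was 0 CPM in each range, except for Myh7 at 0.521 CPM in the top one. Mybpc3, cardiac myosin-binding protein C, was found in 50 cells, 14 high ones at up to 1723 CPM and 26 low ones at up to 345 CPM.

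Mylk3 (ENSMUSG00000031698, chromosome 8, 85324303 to 85386345), the cardiac kinase that phosphorylates the regulatory light chain, did not follow the rest of the set. It was found in 49 cells, 8 of 18 high ones and 34 of 45 low ones, with medians of 0 and 33.1 CPM. Its range medians from low to high were 35.1, 31.3, 29.1, 0 and 4.02 CPM, though single cells of the top range reached 127 CPM. The ratio of means was 0.68, short of 2-fold, and its rank correlation with Actc1 was -0.16, one of 2 below 0 among 31 members, while 61.8% of all genes were below 0. The ventricular light chains were scarce. Myl2, the regulatory one, was found in 10 cells at no more than 53.2 CPM. Myl3, the essential one, was found in 8, at 651 CPM in cell 74 and no more than 75.0 CPM elsewhere. Their medians were 0 CPM in the lower 4 ranges and 15.5 CPM of Myl2 and 14.6 CPM of Myl3 in the top range.

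**Figure D3:**
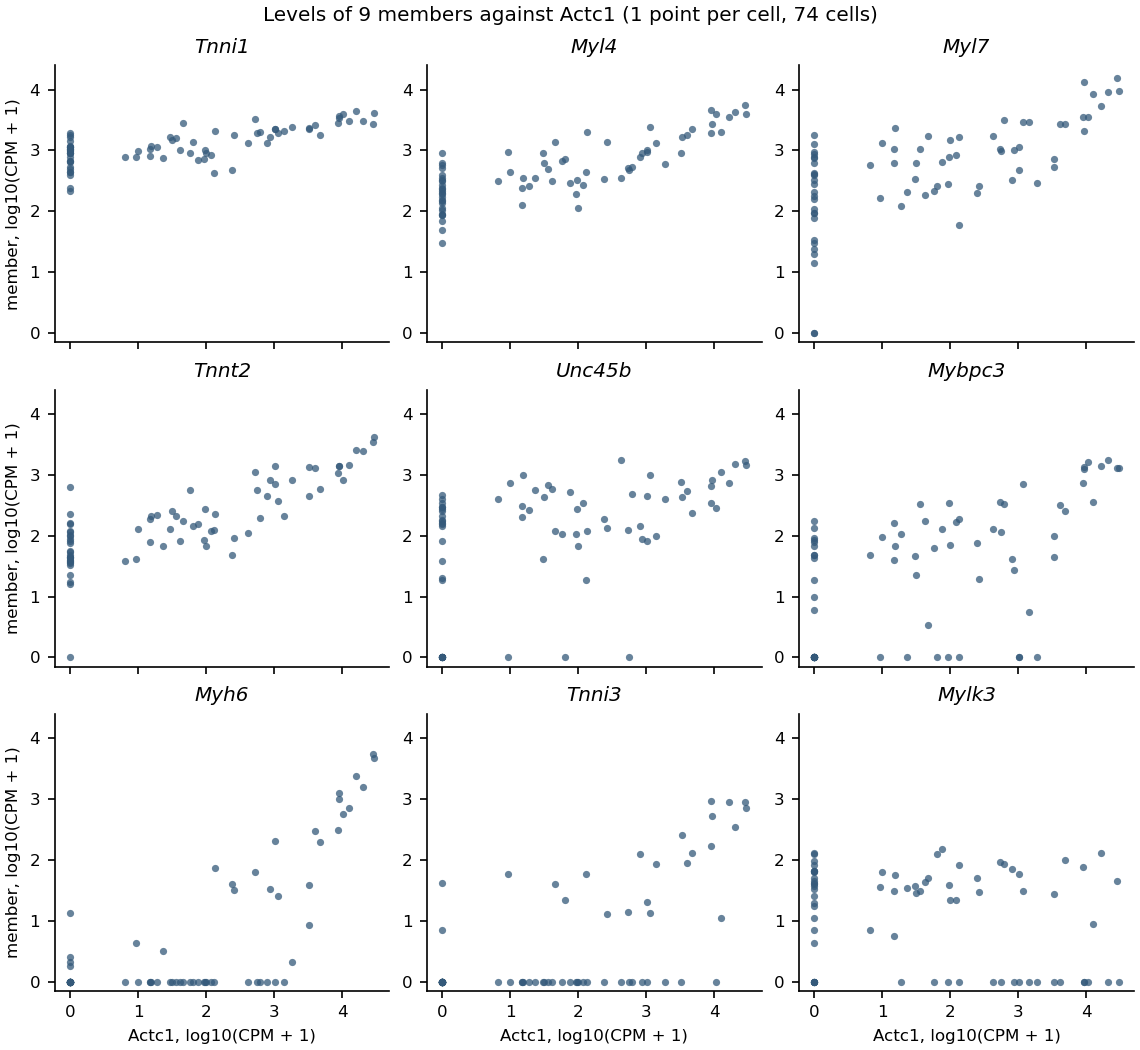
Each point is 1 of 74 cells, with Actc1 on the horizontal and a member on the vertical axis, both as log10(CPM + 1). Tnni1, Myl4 and Tnnt2 form a rising band from cells without Actc1 on, with rank correlations of 0.71, 0.79 and 0.80, whereas Myh6 and Tnni3 lie at 0 in most cells with little Actc1 and Mylk3 shows no upward course (-0.16).

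Titin and Myom1 were found in most high cells, whereas Myom2 was not. Ttn, the elastic scaffold of the sarcomere, was found in 16 high and 10 low cells, with medians of 222 and 0 CPM and maxima of 4152 and 69.6 CPM. Myom1, which bridges thick filaments at the M-band, was found in 16 high and 4 low cells at 89.5 ± 101 and 1.88 ± 6.10 CPM, and its rank correlation with Actc1 was 0.68. Its range medians were 0 CPM up to 1000 CPM of Actc1, then 32.2 and 122 CPM. Myom2, the M-protein of adult fast muscle, was found in 2 high and 10 low cells at 2.69 ± 7.14 and 5.91 ± 12.7 CPM, a difference smaller than the spread over cells, and its correlation with Actc1 was -0.10. Its range medians were 1.28, 2.66, 0.690, 0 and 2.66 CPM.

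Of 13 Z-disc and linker genes, 11 were at least 2-fold higher in high cells, a mark that 5.9% of all genes passed. Actn2, the alpha-actinin that crosslinks actin at the Z-disc, was found in 14 high and 11 low cells at 133 ± 179 and 5.79 ± 12.1 CPM. Csrp3, a LIM protein at the Z-disc, had 525 ± 794 CPM in high cells and 2.07 ± 6.00 CPM in low cells, a ratio of 171. Ankrd1, a stretch-responsive ankyrin repeat protein bound to titin, was found in 14 high and 20 low cells and was uneven. Within the 6 top cells, in order of Actc1, it had 93.8, 43.6, 3867, 65.9, 7731 and 31.3 CPM, so that 2 of the 6 set its mean. In the same 6 cells Csrp3 had 0, 506, 3004, 499, 1281 and 1631 CPM and Myh6 had 578, 719.6, 2368, 1559.9, 5553 and 4796 CPM. The cell of lowest Actc1 in that range thus had Myh6 but none of Csrp3, Actn2 or Tnni3.

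Des, the muscle intermediate filament desmin, was the one Z-disc linker present from the lowest range on, in 65 cells, at 0 to 1506 CPM with a median of 127 and range medians of 76.5, 84.2, 213, 244 and 277 CPM. Pdlim5, a PDZ and LIM scaffold, was found in 55 cells, 15 high ones and 34 low ones, and its median was 64.7 CPM in high cells and 18.1 CPM in low cells. After thinning it passed 50% of cells in every range only from 1000 CPM on, and on counts as deposited from the lowest range on. Ldb3, a scaffold bound to alpha-actinin, Nexn, an actin binder at the Z-disc, and Synpo2l, an actin-bundling Z-disc protein, were found in 20, 20 and 13 cells. Smpx, a small muscle protein, was found in 17 cells without a range. Tcap, which caps titin at the Z-disc, was found in 3 cells of the top range and was at 747 CPM in cell 41 against 29.8 and 37.1 CPM in the other 2. Xirp1, an actin-binding Xin repeat protein, was found in 5 cells, all with at least 9159 CPM of Actc1, at a median of 51.0 CPM in the top range and 0 CPM in the others, and its relative Xirp2 and the calcineurin binder Myoz2 in 1 cell each, with medians of 0 CPM in every range. Members in 3 cells or fewer were thus Acta1, Lmod2, Myh7, Myh7b, Tcap, Xirp2 and Myoz2, 7 of 42, as were 35.9% of all genes.

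Assembly factors differed from one another. Unc45b (ENSMUSG00000018845, chromosome 11, 82910550 to 82943403), the chaperone that folds the myosin head, was found in 62 cells with range medians of 143, 271, 135, 444 and 1273 CPM. It averaged 699 ± 481 CPM in high cells and 219.9 ± 234 CPM in low cells. Smyd1, a muscle methyltransferase that works with it on myosin, was found in 24 cells, 12 high and 7 low, at 52.0 ± 64.7 and 2.13 ± 4.76 CPM. Myo18b, an unconventional myosin needed for sarcomere assembly, was found in 9 cells and Coro6, a coronin, in 6, with cell 41 highest for both at 288 and 184 CPM. The chaperone was read in many cells without these heavy chains, as 42 cells had Unc45b without Myh6, Myh7 or Myh7b and 20 had it with Myh6.

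Partial sets of subunits were common in single cells. Tnnt2 and Tnni1 were found without Tnnc1 in 52 cells and with it in 21. Myl4 and Myl7 were found without any of the 3 heavy chains in 51 cells, of which 26 lay in the lowest Actc1 range, and with Myh6 in 21. As Tnnt2, Tnni1, Myl4 and Myl7 were found in nearly every cell, these numbers mostly restate how widely Tnnc1 and the heavy chains were found. Without here means under 5 counts, and a Tnnc1 count was in 34 cells and a Myh6 count in 27. Mybpc3 was found without Myh6 in 31 cells and with it in 19. The reverse was rare, as Myh6 was found without Actc1 in 1 cell and without Mybpc3 in 2. Ttn and Myh6 were together in 18 cells, and Ttn was found without Myh6 in 14. In the 26 cells without an Actc1 count, Tnni1 had a median of 912 CPM and Tpm1 of 605 CPM.

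Isoform pairs were compared as CPM per kilobase of transcript, and in all 11 pairs the same partner had the higher mean over all cells, with or without length scaling. These were Actc1 over Acta1, Myh6 over Myh7 and Myh7b, Myl7 over Myl2, Myl4 over Myl3, Tnnt2 over Tnnt1, Tnni1 over Tnni3, Tpm1 over Tpm2, Nebl over Neb, Xirp1 over Xirp2 and Myom1 over Myom2. The troponin I pair shifted along Actc1. Tnni3 made up 0.493%, 0.400%, 1.51%, 8.54% and 14.5% of the pair's level per kilobase from the lowest to the highest range. It was 11.1% in high cells and 0.454% in low cells, and all 23 cells with Tnni3 also had Tnni1. The tropomyosins moved the other way, with Tpm2 at 6.70% of the pair in high cells and 11.1% in low cells, and 67 cells had both.

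Myomesin was a pair whose order turned by mean level. Myom2 made up 3.24% of the pair's level per kilobase in high cells and 77.8% in low cells. Cell by cell, Myom2 was the higher per kilobase in 32 cells and Myom1 in 25, although Myom1 had the higher mean. Any count was enough for that comparison, and Myom2 reached 5 counts in 14 cells, with a count in 45. In the low cells Myom2 had a median of 1.39 CPM and a highest value of 68.6 CPM. Both levels were low in the low cells, at 1.17 CPM per kilobase of Myom2 and 0.332 of Myom1, and 31 of 45 low cells had neither, so the turn rests on 10 cells with Myom2 and 4 with Myom1. The light chain pairs held their order in every range, with Myl2 at 0.170% of its pair with Myl7 in high cells and 0.232% in low cells. Myl3 was at 1.67% of its pair with Myl4 in high cells and 0.502% in low cells, and Tnnt1 at 2.70% and 1.96% of its pair with Tnnt2. Actc1 and Acta1 were found together in 1 cell, and in cells without Actc1 Acta1 was found in 1. The transcript taken for Nebl has 7 exons, so the pair of Neb and Nebl depends on which transcript was made. Tnnt1 and Tnni3 lie 1922 bases apart on chromosome 7, Tnni1 and Tnnt2 25364 bases apart on chromosome 1, and Myh6 and Myh7 3756 bases apart on chromosome 14, so the slow Tnni1 is neighbour to the cardiac Tnnt2 and the slow Tnnt1 to the cardiac Tnni3.

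**Figure D4:**
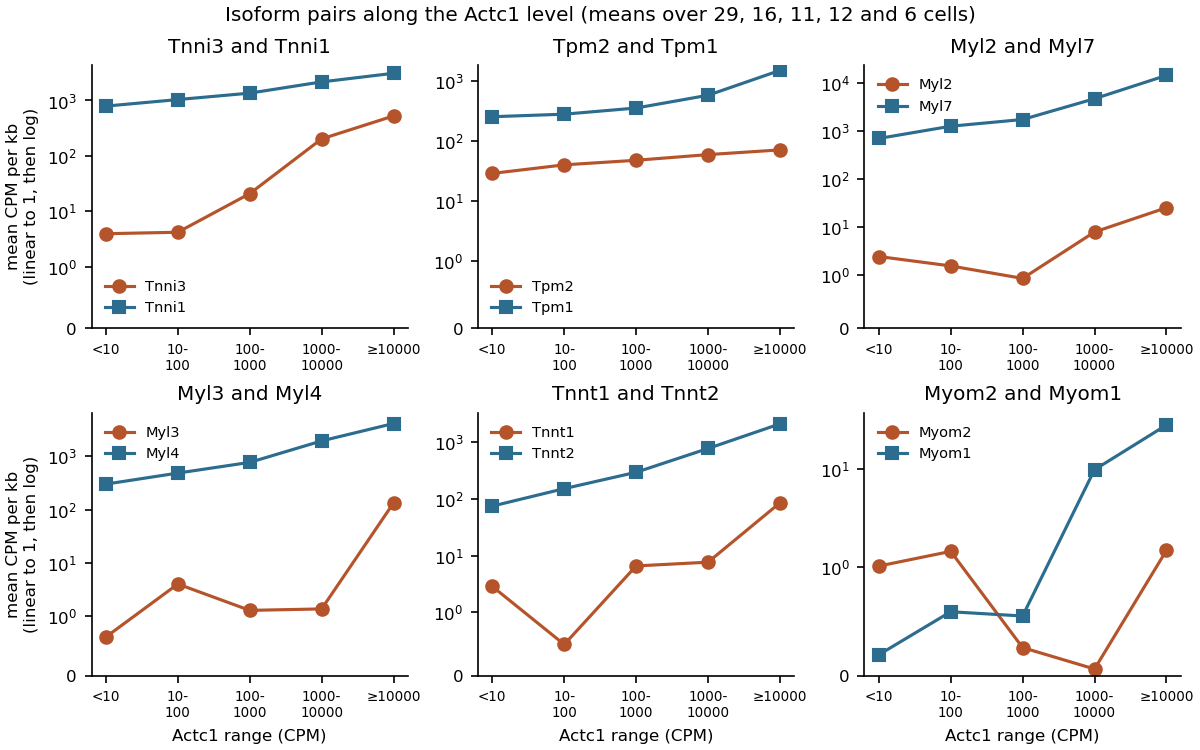
Mean CPM per kilobase of transcript is plotted against the 5 Actc1 ranges for 6 isoform pairs (29, 16, 11, 12 and 6 cells), on an axis that is linear to 1 and logarithmic above. Tnni1, Tpm1, Myl7, Myl4 and Tnnt2 lie above their partners in every range, and Myom2 lies above Myom1 only under 100 CPM of Actc1.

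Members also differed in how they ran against the marker lists of the organ's other cell states, a reading chosen after their values were seen. It was made in the 45 low cells, where the mesothelial list (Wt1, Tcf21, Bnc1, Upk3b, Upk1b, Lhx9, Podxl, Krt19, Lrrn4 and Sema3d) was summarised as a mean of log2(CPM + 1). Of 26 members found in at least 10% of these cells, 3 had a rank correlation of 0.5 or more with that list, beside 2.16% of 11502 other genes, and 1 had -0.5 or less, beside 1.40%. Unc45b was at 0.81, Myl7 at 0.62 and Mybpc3 at 0.55, and Des was at -0.60, with Tpm1 at -0.45. Against the mesenchymal list (Lhx2, Foxf1, Pdgfrb, Col1a1, Col3a1, Tnc and Hlx) Unc45b was at -0.69, Myl7 at -0.70, Mybpc3 at -0.59 and Nebl at -0.52, and Tpm1 was at 0.46. These are 45 points that share 1 sort and 1 scaling. The share of all genes at such values with the mesenchymal list was not computed.

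The cells also divided by Lhx9, a LIM homeobox factor that is itself on the mesothelial list, which 29 of the 45 low cells had and 16 lacked. Unc45b was found in 27 Lhx9-positive cells with a median of 268 CPM, and in 7 Lhx9-negative cells with a median of 0 CPM. Myl7 had medians of 569 CPM with Lhx9 and 162 CPM without it, and Mybpc3 of 47.1 and 0 CPM. The groups overlapped for each gene. Des had medians of 45.9 CPM with Lhx9 and 244 CPM without it, Tpm1 of 559 and 1132 CPM, and Myl4 of 245 and 598 CPM. By the 2-fold rule on means 5 of 26 members were higher with Lhx9 (Unc45b, Mybpc3, Nebl, Ldb3 and Myom2), against 6.40% of all genes. By the same rule 7 were lower (Des, Myl4, Tmod1, Tnni3, Tnnt1, Smpx and Myl2), against 8.74%. Several of these calls rest on few cells. Tnni3, Tnnt1 and Myl2 were each found in 2 cells with Lhx9 and 3 without it. Smpx was found in 3 and 3, Tmod1 in 3 and 6, and Ldb3 in 5 and 0. All of these few-cell genes had medians of 0 CPM in both groups. Myom2 was found in 8 and 2 cells, at a ratio of 2.03. Median totals were 788465 counts with Lhx9 and 957674 without it. The part of depth in these values was not tested.

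**Figure D5:**
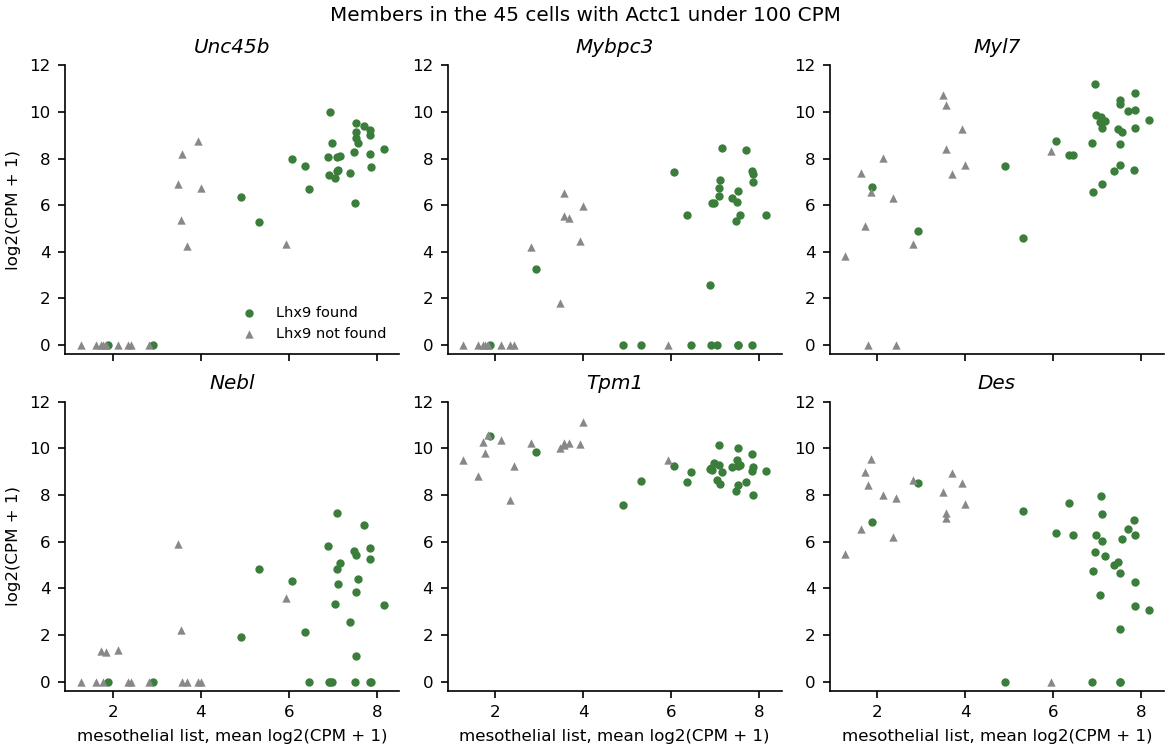
Each point is 1 of the 45 cells with Actc1 under 100 CPM, 29 with Lhx9 (circles) and 16 without (triangles), with the mesothelial list on the horizontal and a member on the vertical axis, both in log2(CPM + 1). Unc45b, Mybpc3, Myl7 and Nebl tend upward with the list, at rank correlations of 0.81, 0.55, 0.62 and 0.45, and Tpm1 and Des tend downward, at -0.45 and -0.60.

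Over the 496 pairs of 32 members found in at least 10% of cells, the median rank correlation was 0.38 over 74 cells, beside 0.0055 over all pairs of 11511 such genes. The highest was that of Myl4 and Tnni1, at 0.82. Of the 496 pairs, 52 were below 0, as were 48.3% of all pairs, and 23 of the 52 involved Mylk3 and 22 Myom2. The genes outside the set whose course was most like that of Actc1, by rank correlation over 74 cells among 7113 genes found in at least 10% of cells with a mean of at least 20 CPM, were Cnn1 (0.73), Jph2 (0.73), Sh3bgr (0.73), Dstn (0.72), Atp2a2 (0.71), Lmo7 (0.71), Hcn4 (0.71), Gyg (0.70), Myl1 (0.69) and Acta2 (0.69). Several of these are known muscle genes, such as smooth muscle calponin Cnn1, the junctophilin Jph2 and the calcium pump Atp2a2.

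Genes outside the set were read by list. Of 37 other sarcomere and Z-disc genes, 24 were found in at least 10% of cells, and of these 12 were at least 2-fold higher in high cells and 1, Pdlim1, was lower, where 6.33% and 8.88% of 11511 such genes were. Trim55, a titin-binding ligase, was found in 14 high and 1 low cells, and the small heat shock gene Hspb7 in 13 and 2. Of 12 heart muscle genes outside the sarcomere, 5 were found in at least 10% of cells and all 5 were higher, namely Ryr2, Atp2a2, Slc8a1, Hcn4 and Popdc2. The cardiac factor Nkx2-5 was found in 5 cells, the natriuretic peptide Nppa in 3, and Pln, Casq2 and Ckm in 1 each, while Cox8b was in 0. The summed level of that list was 353 to 4643 CPM in high cells and 74.9 to 705 CPM in low cells.

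Smooth muscle genes moved with the set. Of 7 listed, 5 were found in at least 10% of cells, 4 of them were higher in high cells and Smtn was lower. Of 11511 genes found that widely, 6.33% were higher and 8.88% were lower, shares that stand beside each list below too. The summed level of the list was 777 to 13496 CPM in high cells and 27.9 to 1806 CPM in low cells. Acta2, smooth muscle actin, was found in 18 high and 38 low cells at means of 4002 and 278 CPM, and Myh11, the defining smooth muscle heavy chain, in 1 cell. The skeletal list gave Myl1, Tnni2 and Tnnt3 as higher and Actn3 as lower, and the determination factors Myod1, Myf5 and Myog were found in none of the cells, and a count of 0, taken to allow up to 3 of 74 cells, is compatible with 4.05% of cells. Mesothelial genes were lower in high cells for 9 of 10, and their sum was 19.8 to 1861 CPM in high cells and 95.5 to 3812 CPM in low cells. Mesenchymal genes were lower for 4 of 7, with sums of 2.06 to 990.3 CPM in high cells and 0 to 4147 CPM in low cells. Endothelial genes (3 of 5 found, 1 lower, Cdh5 and Emcn in 0 cells) added no higher gene. The adult globin Hba-a1 was found in 30 cells, at a ratio of 0.68 between high and low cells. Among 17 muscle regulators, 16 were found in at least 10% of cells. Myocd, Isl1, Tbx5, Tbx20, Mef2c and Mrtfa were higher, against 6.33% of such genes, while Hand1 alone was lower, against 8.88%. Mrtfa was only just past the mark, at a ratio of 2.01, and was found in 7 of 18 high and 23 of 45 low cells. Mef2c was found in 4 high and 5 low cells, and its rank correlation with Actc1 was 0.06. The part that a mixture of cell types in a well, or another cell type, had in the members' values was not tested.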

How the data were processed

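Estimated counts per gene, deposited by the authors for 74 cells as whole numbers, are neither depth- nor length-normalised. Per the labels' protocols, cells were sorted by flow cytometry and amplified full length with SMARTSeq V4 and Nextera XT. The submitters' processing notes name kallisto, with no version, and hg38, whereas every identifier is a mouse Ensembl identifier. The rounding, and the summing to genes, are not given in the sources used here. Molecules were not tagged, so counts are not independent molecules.

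Symbols matched 29857 of 30323 identifiers. Counts were scaled to CPM and read as log2(CPM + 1). A gene was found at 5 or more counts. For the order of appearance each cell was thinned to 216177 counts. Transcript lengths, positions and overlaps came from GENCODE M21 (GRCm38), with the longest APPRIS principal transcript per gene, and promoters from RefSeq (GRCm38.p6). No cell was left out, no cell was marked as a doublet and no doublet caller was run. The measures were also run on simulated counts in which each gene was drawn independently of the others, and no result here rests on that run.

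The members and lists were chosen with earlier results of these data known. Values were given by Actc1 range for members in at least 95% of cells, both genes of each pair, the 5 of highest mean, and the 5 of highest and 5 of lowest correlation with Actc1. Members in 3 cells or fewer were named, as were the 10 other genes most like Actc1, and further members were named by role once values had been seen. The alternatives changed the count for presence, the thinning, the ordering, the ranges, the scaling (scran size factors), the pseudocount, the filters and the cells used. The genome sequence and protein sequences were not used here. An item withheld from the text is not reported here. The tools were R 4.3.3 with scran 1.30.0, and Python 3.11.15 with SciPy 1.17.1, pandas 2.3.3, numpy 2.4.6 and matplotlib 3.10.9.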

Additional observations from a re-analysis of the deposited data

How the results depend on the processing

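No paired analysis was possible because there is 1 group of cells. Of 40 alternatives over 9 results, 38 kept their direction and stayed within 1.5 times the reported value. With 1 count for presence 4 members, not 7, were in 3 cells or fewer, and with 5 ranges of equal numbers of cells 17 members, not 10, had no range of appearance. The number of members that came in at 1000 CPM of Actc1 or more was 22 as reported, 18 at 1 count, 17 at 10 counts, 19 on counts as deposited, 20 when cells were ordered by the other members and 15 in the upper 2 of 5 ranges of equal numbers of cells. Without cell 41, an alternative chosen after seeing the data, it was 19, since Myl3, Tcap and Myo18b lost their range. The count of members 2-fold higher was 31 with a pseudocount of 10 CPM. The median correlation with Actc1 was 0.52 without cell 41 and 0.44 with Myl7 as the axis. Absence below 3 counts cannot be read at this depth, a limit that reaches 12.8 CPM in the shallowest cell without Actc1. Genes called not found had fewer than 5 counts, so the level that this call can miss is higher. With no embryo named, a difference between embryos and one between cells cannot be told apart.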
